A study of Rattus norvegicus with 17 samples.

Results

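The 7 genes described here carry the Desert hedgehog signal of the fetal testis from its ligand to its readout: Dhh, Ptch1, Smo, Gli1, Gli2, Gli3 and Hhip. They were picked by name from the gene names in the deposited counts, 1 identifier per name, out of 30560 genes, and all 7 passed the filter on low counts that left 18005 genes for testing. Their RNA was measured in 17 polyA-selected libraries of whole testes from wild type Sprague Dawley rat fetuses on gestational day 21. The dams had been gavaged daily on gestational days 17 to 21, at 2.5 mL/kg, with corn oil (vehicle, n = 3 libraries) or with dipentyl phthalate (DPeP), a plasticizer, in the same oil. The lower doses of 1, 11 and 100 mg/kg/d had 3 libraries each, and the top dose of 300 mg/kg/d had 5. Each library was made from a single testis or from 2 testes pooled within a litter. The sources used here do not say whether every library had a dam to itself, so p-values measure the spread between these libraries, which may be technical in part.

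Desert hedgehog is the hedgehog ligand of the testis. Sertoli cells of the cords secrete it, and interstitial and peritubular cells around the cords receive it. Without ligand, the receptor Ptch1 holds the signal transducer Smo inactive, and Gli3 and part of Gli2 act as repressors. Bound ligand releases Smo, which acts at the primary cilium and lets full-length Gli proteins turn on target genes. Gli1, Ptch1 and Hhip are themselves such targets, so their RNA is commonly read as the output of the pathway, while Ptch1 and Hhip also bind ligand and limit the signal. In mice, loss of Dhh leaves the testis short of fetal Leydig cells and with a disturbed peritubular layer.

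On mRatBN7.2, the build of the count files, Dhh (ENSRNOG00000053675) lies at chr7:130050910-130056406 on the minus strand and Ptch1 (ENSRNOG00000019354) at chr17:1542877-1607333 on the plus strand. Smo (ENSRNOG00000008332) lies at chr4:58343529-58373829 on the plus strand and Hhip (ENSRNOG00000018268) at chr19:27863213-27952528 on the plus strand. The Gli genes lie on the minus strand, Gli1 (ENSRNOG00000025120) at chr7:63156926-63169251, Gli2 (ENSRNOG00000007261) at chr13:29946809-30163574 and Gli3 (ENSRNOG00000014395) at chr17:49438567-49709712. Gli1 shares 599 exon bases with Arhgap9 on the opposite strand, and the kit does not mark strand, so some reads of the pair cannot be told apart. Arhgap9 had 77 to 179 counts per library, at 4.52 to 9.14 CPM, against 59.9 to 109 CPM for Gli1.

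The promoters of the ligand and of the receptor that is also a Gli target are shown because they sit at opposite ends of the pathway. Both are RefSeq sequences on the build GRCr8, read 5′ to 3′ on the strand of the gene, and hold the 250 bases before its start. Capitals mark an exact match to the Gli consensus GACCACCCA or its reverse complement TGGGTGGTC.
Ptch1, chr17:1555321-1555570, plus strand: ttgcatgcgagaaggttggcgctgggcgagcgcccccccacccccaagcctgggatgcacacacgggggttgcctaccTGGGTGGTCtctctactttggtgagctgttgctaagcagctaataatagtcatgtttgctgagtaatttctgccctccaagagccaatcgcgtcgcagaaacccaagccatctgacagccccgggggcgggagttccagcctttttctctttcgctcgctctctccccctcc
Dhh, chr7:131935353-131935602, minus strand: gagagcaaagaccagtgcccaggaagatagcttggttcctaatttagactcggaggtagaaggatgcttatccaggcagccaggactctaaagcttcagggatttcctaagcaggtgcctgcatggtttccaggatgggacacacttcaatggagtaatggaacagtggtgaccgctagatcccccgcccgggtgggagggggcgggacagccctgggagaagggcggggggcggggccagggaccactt
The Ptch1 promoter held 1 match, which begins 172 bases before the start. Windows running from 250 bases before to 50 bases after the start held these letters in 129 of 33469 RefSeq promoters, a share of 0.385%. Among the 6 members with a promoter in the table (Gli1 has none there), Ptch1 was the only one with a match, and Dhh, Smo, Gli2, Gli3 and Hhip had none. A match is a description of the letters, not a bound site.

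Libraries held 14282274 to 20323488 gene counts, and the members were read by 229 to 4532 counts each. In the libraries of replicates 05 and 18 at 100 mg/kg/d, 9.05% and 7.76% of gene counts came from the mitochondrial genome, against 4.35% to 6.16% in the other 15. Results at 100 mg/kg/d are given with and without these libraries. Markers of Sertoli, Leydig, germ and interstitial cells were present, with their summed levels given below. The listed Sertoli marker Cst9 was not found under that name. In whole tissue, fewer cells of a type and less RNA per cell cannot be told apart.

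Levels below are in CPM, counts scaled to a common library size with TMM factors, and within a group the values run in the order of the replicate numbers (01, 08 and 15 for vehicle; 02, 09 and 10; 03, 16 and 17; 05, 18 and 19; 06, 07, 13, 14 and 20 for the top dose). Fold changes and p-values are from edgeR's quasi-likelihood F test in 1 fit of all 17 libraries, with Benjamini-Hochberg adjustment over the 18005 genes. A gene was called at an adjusted p under 0.05. All doses were compared with the same 3 vehicle libraries, so the comparisons are not independent of each other.

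Dhh, the ligand, was higher in testes exposed to 300 mg/kg/d than in vehicle testes, by 1.46-fold. It was the only one of the 7 genes called at any dose against vehicle. The 2 other genes often read as pathway output with Ptch1, namely Gli1 and Hhip, were not called at any dose, and neither were Ptch1, Smo, Gli2 or Gli3.

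Dhh stood at 76.9, 63.0 and 85.6 CPM in vehicle libraries, at 78.5, 91.2 and 87.0 CPM at 1 mg/kg/d and at 90.7, 69.5 and 73.7 CPM at 11 mg/kg/d. Dhh levels were 78.6, 99.5 and 79.4 CPM at 100 mg/kg/d and 97.5, 106, 134, 109.7 and 99.6 CPM at 300 mg/kg/d. Every library of the 300 mg/kg/d group lay above every vehicle library, while the groups at 1, 11 and 100 mg/kg/d overlapped the vehicle group. Among all tested genes, 5.75% were higher without overlap at 300 mg/kg/d, and 6.73% at 100 mg/kg/d, where no member was. Replicate 13 at 300 mg/kg/d was the highest library and vehicle replicate 08 the lowest.

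Dhh averaged 109 ± 14.7 CPM at 300 mg/kg/d (SD, n = 5) and 75.2 ± 11.4 CPM in vehicle libraries (SD, n = 3). The log2 fold change was 0.54 (SE 0.13, 95% interval 0.28 to 0.81), which is 1.21-fold to 1.76-fold, at an adjusted p of 0.0243 by edgeR. At this dose 2.4% of the 18005 tested genes were called and 0.994% were called higher, against 1 of the 7 members. At the lower doses the log2 fold change of Dhh was 0.19 at 1 mg/kg/d (95% interval -0.10 to 0.49), 0.05 at 11 mg/kg/d (-0.24 to 0.35) and 0.21 at 100 mg/kg/d (-0.09 to 0.50), with edgeR adjusted p of 0.864, 0.992 and 0.427. Between 300 and 100 mg/kg/d it differed by 0.34 (95% interval 0.07 to 0.60, edgeR adjusted p 0.126). With replicates 05 and 18 at 100 mg/kg/d left out, Dhh stood 0.07 above vehicle at 100 mg/kg/d (adjusted p 0.908) and 0.47 higher at 300 than at 100 mg/kg/d (adjusted p 0.982). Over the alternatives these adjusted p ran from 0.222 to 0.908 and from 0.0705 to 0.982.

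The Dhh call rested on few libraries. Over the 16 alternatives run, its log2 fold change at 300 mg/kg/d stayed between 0.43 and 0.65, its edgeR, DESeq2 or limma-voom adjusted p ran between 0.00304 and 0.165, and it was called in 11. The call was lost without vehicle replicate 01 (adjusted p 0.0808), vehicle replicate 08 (0.165), replicate 13 (0.0676) or replicate 14 (0.0569) of the top dose. It was also lost in a fit blocked on the sample code of the titles (0.0787). That code, S446, S447 or S448, marks 2, 8 and 7 libraries, and the sources used here do not explain it. As a log2 ratio of mean CPM, Dhh in the 300 mg/kg/d libraries stood 0.49 above the vehicle library within S447 and 0.41 within S448. S446 had no library at this dose.

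A test for any difference among the 5 groups also called Dhh (edgeR adjusted p 0.0365), where 6.16% of tested genes were called, and so did the slope on log2(dose + 1). The slope was 0.05 log2 units per unit of log2(dose + 1) at an edgeR adjusted p of 0.0273, where 5.72% of genes were called and 2.74% were called as rising. Dhh was the only member called in either test. The test among groups lost Dhh in 11 of 24 alternatives (adjusted p 0.0026 to 0.102), and the slope lost it in 7 of 25 (0.0105 to 0.0998). For the slope these were the sample code block (0.0998) and the fits without vehicle replicate 01 (0.0515) or 08 (0.068) or replicate 07 (0.0545), 13 (0.0731), 14 (0.0645) or 20 (0.0511) at 300 mg/kg/d. For the test among groups these were the block (0.0731) and the fits without vehicle replicate 01 (0.0585) or 08 (0.0627), replicate 09 (0.0529) or 10 (0.0628) at 1 mg/kg/d, replicate 16 (0.0591) or 17 (0.0652) at 11 mg/kg/d, or replicate 07 (0.0719), 13 (0.102), 14 (0.081) or 20 (0.0584) at 300 mg/kg/d.

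**Figure D1:**
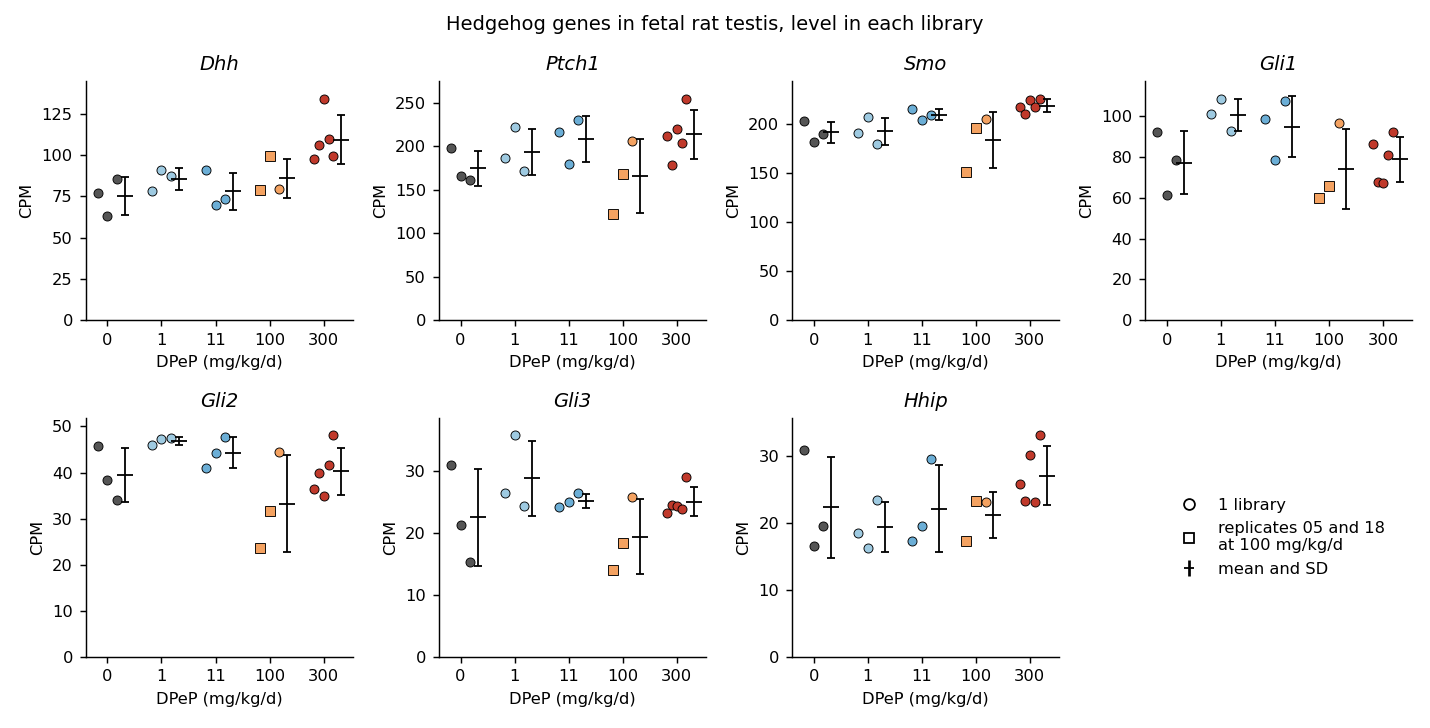
Level of each hedgehog gene in CPM (y axis, from 0) against the daily dose of DPeP in mg/kg/d (x axis, 0 is vehicle), 1 point per library, with mean and SD beside each group and squares for replicates 05 and 18 at 100 mg/kg/d. For Dhh the 5 libraries at 300 mg/kg/d sit between 97.5 and 134 CPM, above the 3 vehicle libraries between 63.0 and 85.6 CPM.

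Markers of Sertoli cells, which make Dhh, also differed. Of 16 tested Sertoli markers other than Dhh, 5 were called higher and 1 lower at 300 mg/kg/d, with a median log2 fold change of 0.20 against 0.01 over all tested genes. Their summed level ran between 3804 and 6323 CPM at 300 mg/kg/d and between 3327 and 4255 CPM in vehicle libraries, and no tested marker was at 0 in any library. Sox8, a transcription factor of Sertoli cells, was higher by 0.84 log2 units (edgeR adjusted p 0.00265), and Amh, the hormone that removes the Müllerian ducts, by 0.83 (0.018). Sox9, the factor that sets Sertoli fate, stood 0.48 above vehicle at an edgeR adjusted p of 0.212. The other called Sertoli markers, named after their values were seen, were Clu (0.84), Fgf9 (0.97) and Ptgds (1.03) as higher and Inha (-1.22) as lower. The calls of Sox8, Clu and Inha held in 16 of 16 alternatives. That of Amh held in 12 and was lost with the sample code block (adjusted p 0.0591) and without replicate 14 of the top dose (0.0551), vehicle replicate 08 (0.118) or vehicle replicate 15 (0.081). That of Fgf9 held in 14, lost without vehicle replicate 01 (0.0509) or 15 (0.0666), and that of Ptgds in 13, lost with the block (0.0649) and without vehicle replicate 01 (0.1) or 08 (0.0916). The part of these marker levels in the Dhh result was not tested.

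Ptch1 and Hhip bind the ligand on the receiving cell, and both are transcribed in response to it. Ptch1, the receptor, stood at 198, 166 and 161 CPM in vehicle libraries, at 186, 223 and 171 CPM at 1 mg/kg/d and at 217, 179 and 230.0 CPM at 11 mg/kg/d. Ptch1 levels were 122, 168 and 207 CPM at 100 mg/kg/d and 213, 178, 220.0, 204 and 255 CPM at 300 mg/kg/d. At the top dose 4 of 5 libraries lay above every vehicle library, and replicate 07 lay within the vehicle range.

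Ptch1 averaged 214 ± 27.8 CPM at 300 mg/kg/d (SD, n = 5) and 175 ± 20.0 CPM in vehicle libraries (SD, n = 3), a log2 fold change of 0.29 (95% interval -0.01 to 0.60, edgeR adjusted p 0.405). At 1 and 11 mg/kg/d the log2 fold changes were 0.15 and 0.26, with edgeR adjusted p of 0.875 and 0.992. Peritubular myoid markers, from cells that express Ptch1 in mouse testis, stood higher at 300 mg/kg/d in 7 of 7 genes other than Ptch1, with 0 called and a median log2 fold change of 0.35. Their summed level was 979 to 1463 CPM at 300 mg/kg/d and 928 to 998 CPM in vehicle libraries, and its part in the Ptch1 values was not tested. The median of these markers was 0.48 at 1 mg/kg/d and 0.38 at 11 mg/kg/d, with 7 of 7 higher at both, and -0.05 at 100 mg/kg/d, with 1 of 7 higher, and none was called at any dose.

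Hhip, a decoy that captures ligand at the membrane, stood at 30.9, 16.6 and 19.5 CPM in vehicle libraries, at 18.4, 16.3 and 23.5 CPM at 1 mg/kg/d and at 17.3, 19.5 and 29.5 CPM at 11 mg/kg/d. Hhip levels were 17.3, 23.2 and 23.1 CPM at 100 mg/kg/d and 25.8, 23.2, 30.2, 23.1 and 33.1 CPM at 300 mg/kg/d. Vehicle replicate 01 was the second highest Hhip library of all, and the vehicle range covered 4 of the 5 libraries at the top dose. The log2 fold change at 300 mg/kg/d was 0.28 with a wide interval (95% interval -0.14 to 0.71, edgeR adjusted p 0.606). At 1, 11 and 100 mg/kg/d it was -0.20, -0.01 and -0.06, with edgeR adjusted p of 0.877, 0.999 and 0.91.

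Smo, the transducer, is needed for the signal but is not a target of it. Smo stood at 204, 183 and 190.3 CPM in vehicle libraries, at 191, 207 and 180.2 CPM at 1 mg/kg/d and at 216, 205 and 209 CPM at 11 mg/kg/d. Smo levels were 152, 196 and 205 CPM at 100 mg/kg/d and 218, 210.2, 225, 218 and 226 CPM at 300 mg/kg/d. Smo was the steadiest member, with the highest library only 1.49 times the lowest, against 1.81 to 2.56 times for the others. Its 5 libraries at 300 mg/kg/d all lay above the 3 vehicle libraries, as 5.75% of tested genes did, and above the 3 libraries at 100 mg/kg/d, as 3.52% did. The 3 libraries at 11 mg/kg/d also lay above vehicle, as did 5.22% of tested genes.

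Smo averaged 219 ± 6.45 CPM at 300 mg/kg/d (SD, n = 5) and 192 ± 10.7 CPM in vehicle libraries (SD, n = 3). The log2 fold change was 0.19 (95% interval 0.0025 to 0.38), or 1.14-fold, at an edgeR adjusted p of 0.368, so it was not called. Without replicates 05 and 18 at 100 mg/kg/d, the Smo slope on log2(dose + 1) was called (0.02 log2 units per unit, edgeR adjusted p 0.0344). That fit called 1711 genes. With all libraries 1030 genes, or 5.72%, were called for the slope, and Smo was not (edgeR adjusted p 0.403). Over the 25 alternatives the adjusted p of the Smo slope ran from 0.0344 to 0.72.

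Gli1 is the pathway's most used readout, since it is transcribed when the signal is on. Gli1 stood at 92.1, 61.5 and 78.4 CPM in vehicle libraries, at 101, 109 and 92.6 CPM at 1 mg/kg/d and at 98.6, 78.4 and 108 CPM at 11 mg/kg/d. Gli1 levels were 59.9, 65.8 and 96.8 CPM at 100 mg/kg/d and 86.3, 67.9, 67.1, 80.9 and 92.2 CPM at 300 mg/kg/d. The 4 highest libraries were from the groups at 1 and 11 mg/kg/d, and at 300 mg/kg/d 4 of 5 libraries lay within the vehicle range.

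Gli1 averaged 78.9 ± 11.1 CPM at 300 mg/kg/d (SD, n = 5) and 77.3 ± 15.3 CPM in vehicle libraries (SD, n = 3). The log2 fold change was 0.03, with a 95% interval of -0.29 to 0.36 and an edgeR adjusted p of 0.963, so the data allow a change between 0.816-fold and 1.28-fold. At 1 mg/kg/d all 3 libraries lay above every vehicle library, as 6.43% of tested genes did, at a log2 fold change of 0.39 (95% interval 0.02 to 0.75, edgeR adjusted p 0.864). At 11 mg/kg/d it was 0.30 (95% interval -0.07 to 0.66, edgeR adjusted p 0.992). In the fit of all 17 libraries edgeR called 0 genes at 1 or 11 mg/kg/d. There 891 and 633 genes, or 4.95% and 3.52% of tested genes, had an unadjusted edgeR p under 0.05. DESeq2 called 0 and 26 genes at these doses. Other settings of edgeR called up to 3 genes at 1 mg/kg/d and up to 19 at 11 mg/kg/d, none of them a member.

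Gli2, the main activator of target genes, and Gli3, mainly a repressor, were the lowest members in CPM beside Hhip. Gli2 stood at 45.8, 38.3 and 34.1 CPM in vehicle libraries, at 45.9, 47.3 and 47.5 CPM at 1 mg/kg/d and at 41.0, 44.3 and 47.6 CPM at 11 mg/kg/d. Gli2 levels were 23.5, 31.7 and 44.4 CPM at 100 mg/kg/d and 36.4, 40.0, 35.0, 41.7 and 48.1 CPM at 300 mg/kg/d. At 1 mg/kg/d the 3 libraries lay above every vehicle library, as 6.43% of tested genes did, by as little as 45.9 against 45.8 CPM, with a log2 fold change of 0.25 (95% interval -0.10 to 0.61, edgeR adjusted p 0.864). At 300 mg/kg/d the change was 0.03 (95% interval -0.28 to 0.35, edgeR adjusted p 0.962).

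Gli3 stood at 30.9, 21.2 and 15.3 CPM in vehicle libraries, at 26.3, 35.7 and 24.4 CPM at 1 mg/kg/d and at 24.2, 24.9 and 26.4 CPM at 11 mg/kg/d. Gli3 levels were 13.9, 18.3 and 25.8 CPM at 100 mg/kg/d and 23.2, 24.4, 24.3, 23.8 and 29.0 CPM at 300 mg/kg/d. The 3 vehicle libraries spread more widely than those of any DPeP group and covered all 5 libraries at 300 mg/kg/d. The log2 fold change at that dose was 0.15 (95% interval -0.25 to 0.56, edgeR adjusted p 0.809). Within S447 Gli3 in the 300 mg/kg/d libraries stood 0.67 above the vehicle library, as a log2 ratio of mean CPM. Within S448 the same log2 ratio was -0.28. In S447 and S448 these log2 ratios were 0.31 and 0.18 for Ptch1, 0.19 and 0.12 for Smo, and -0.21 and -0.09 for Gli1. For Gli2 they were 0.13 and -0.12, and for Hhip 0.45 and -0.18, so Gli2, Gli3 and Hhip had opposite signs in the 2 codes.

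**Figure D2:**
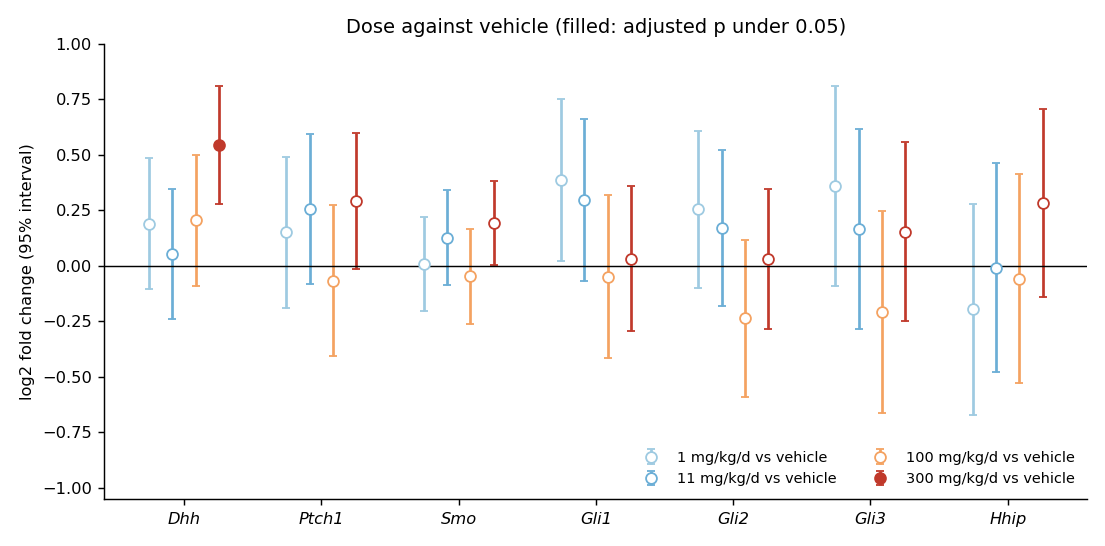
Log2 fold change of each hedgehog gene (y axis) at 1, 11, 100 and 300 mg/kg/d against the same 3 vehicle libraries, with 95% intervals from the edgeR fit; a filled point has an adjusted p under 0.05. Dhh at 300 mg/kg/d, at 0.54, is the only filled point, and at 100 mg/kg/d the 6 members other than Dhh lie between -0.24 and -0.05.

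The group at 100 mg/kg/d held libraries far apart from each other. Ptch1, Smo, Gli1, Gli2 and Gli3 were each lowest of all 17 libraries in replicate 05, while replicate 19 lay above the vehicle mean for each of them. Hhip was also lowest of its group in replicate 05. With all 3 libraries, Gli2 stood at -0.24 against vehicle and Gli3 at -0.21, and no member was called at this dose, where 1.52% of tested genes were. Without replicates 05 and 18, where the single library left is taken to vary as the other groups do, the 6 members other than Dhh changed sign, to 0.23 for Ptch1, 0.08 for Smo, 0.31 for Gli1, 0.16 for Gli2, 0.19 for Gli3 and 0.04 for Hhip. None of them was called there either. Without replicate 19 instead, Gli2 was called lower at 100 mg/kg/d (-0.50, edgeR adjusted p 0.022, against 0.022 to 0.904 over the alternatives). That fit called 4250 genes, higher or lower, where the main fit tested 18005.

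Between 300 and 100 mg/kg/d all 7 members had a positive log2 fold change, with a median of 0.34 against -0.01 over all tested genes, and none was called, as 0.00555% of tested genes were. Without replicate 19 at 100 mg/kg/d, 4 members were called higher at 300 than at 100 mg/kg/d: Ptch1 (0.55, edgeR adjusted p 0.00758), Smo (0.32, 0.0105), Gli2 (0.53, 0.0067) and Gli3 (0.62, 0.024). Over the alternatives their adjusted p ran from 0.0067 to 0.993, and in no other setting was any of the 4 called. That fit called 5872 genes in all, higher or lower, where the main fit tested 18005. The test among groups called 5 members in that setting (Dhh, Ptch1, Smo, Gli1 and Gli2) and 5913 genes, with adjusted p of 0.037 for Ptch1, 0.0428 for Smo, 0.0161 for Gli1 and 0.00745 for Gli2, against up to 0.534 over the alternatives. Without replicates 05 and 18, Gli1, Gli2 and Gli3 changed sign between the 2 top doses, to -0.29, -0.14 and -0.04. Replicates 05 and 18, with the high mitochondrial shares, were also the lower libraries of this dose for Ptch1, Smo and the 3 Gli genes, as given above. Germ cell markers summed to 1027 CPM in replicate 05, 1232 CPM in replicate 18 and 830.0 CPM in replicate 19, against 656 to 792 CPM in vehicle libraries, with 12 of 12 higher at this dose and 2 called. Mesonephric duct markers summed to 445 CPM in replicate 05, 523 CPM in replicate 18 and 279 CPM in replicate 19, against 282 to 324 CPM in vehicle libraries, with 9 of 10 higher and 0 called. Endothelial markers summed to 266 CPM in replicate 05, 323 CPM in replicate 18 and 445 CPM in replicate 19, against 511 to 532 CPM in vehicle libraries, with 10 of 11 lower and 1 called. Peritubular myoid markers summed to 613 CPM in replicate 05, 906 CPM in replicate 18 and 1146 CPM in replicate 19, against 928 to 998 CPM in vehicle libraries. Interstitial progenitor markers summed to 2956, 2752 and 3059 CPM in replicates 05, 18 and 19, against 3166 to 3494 CPM in vehicle libraries. Of these 16 markers 13 were lower and 3 higher at this dose, with 0 called and a median log2 fold change of -0.22. The correlation of log2 CPM with log2 gene length over the tested genes was 0.31 and 0.33 in replicates 05 and 18 and 0.38 in replicate 19, against 0.33 to 0.37 in vehicle libraries. The part of these differences in the members' values was not tested.

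Per gene length, in TPM over all 17 libraries, Smo was the most abundant member at 122 ± 17.1 TPM (SD, n = 17), then Dhh at 85.9 ± 17.8, Ptch1 at 68.3 ± 14.4 and Gli1 at 54.5 ± 12.9 TPM. Hhip at 18.2 ± 4.74, Gli2 at 14.4 ± 3.11 and Gli3 at 11.6 ± 3.06 TPM formed a lower set. No library's Gli1 level (lowest 30.9 TPM) reached down to the highest Hhip level (27.2 TPM), while neighbours within each set overlapped in range. At 300 mg/kg/d Dhh stood at 107 ± 13.4 TPM, above Ptch1 at 76.1 ± 10.4 TPM (SD, n = 5 each). In vehicle libraries Dhh stood at 70.5 ± 9.74 TPM and Ptch1 at 59.8 ± 8.80 TPM (SD, n = 3 each).

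**Figure D3:**
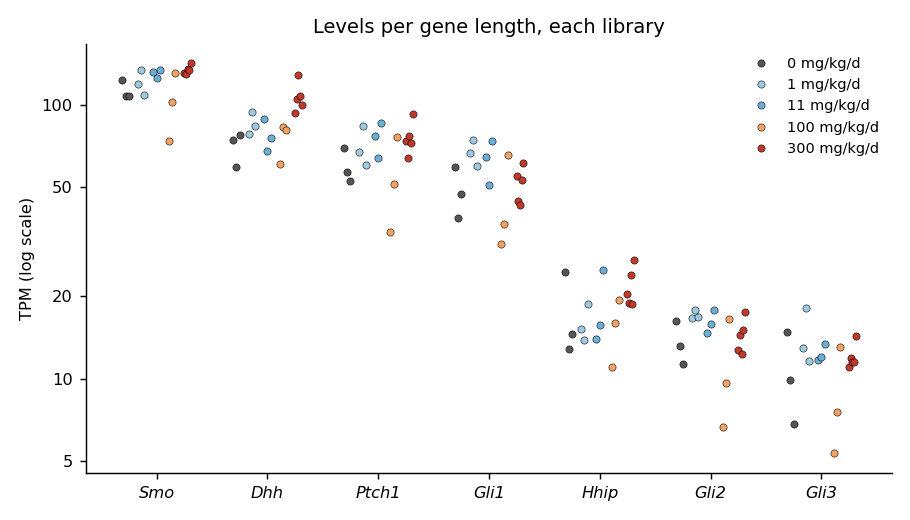
Level of each hedgehog gene in TPM (y axis, log scale) in each of the 17 libraries, coloured by dose in mg/kg/d with 0 for vehicle, and ordered by mean. Smo, Dhh, Ptch1 and Gli1 lie between 30.9 and 142 TPM, and Hhip, Gli2 and Gli3 between 5.32 and 27.2 TPM.

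The readout genes were also set against the ligand within each library, as a description with no test. The TPM ratio of Gli1 to Dhh was 0.590, 0.426, 0.334, 0.492 and 0.617 in the libraries at 300 mg/kg/d, against 0.798, 0.650 and 0.610 in vehicle libraries. The top-dose ratios thus lay below the vehicle range in 4 of 5 libraries, with a mean of 0.492 ± 0.117 (SD, n = 5) against 0.686 ± 0.099 (SD, n = 3). Ptch1 over Dhh averaged 0.721 ± 0.141 at 300 mg/kg/d and 0.859 ± 0.152 in vehicle libraries, and Hhip over Dhh 0.206 ± 0.041 at 300 mg/kg/d and 0.245 ± 0.075 in vehicle libraries, with overlapping ranges. Members that are not readouts also averaged lower against Dhh at 300 mg/kg/d than in vehicle libraries, with overlapping ranges. Smo over Dhh averaged 1.27 ± 0.15 and 1.62 ± 0.21 in these groups. Gli2 over Dhh averaged 0.137 ± 0.029 and 0.195 ± 0.043, and Gli3 over Dhh 0.114 ± 0.020 and 0.151 ± 0.0565 (SD, n = 5 and 3). The higher Dhh level is part of each of these ratios, and they were not computed for genes other than the members.

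**Figure D4:**
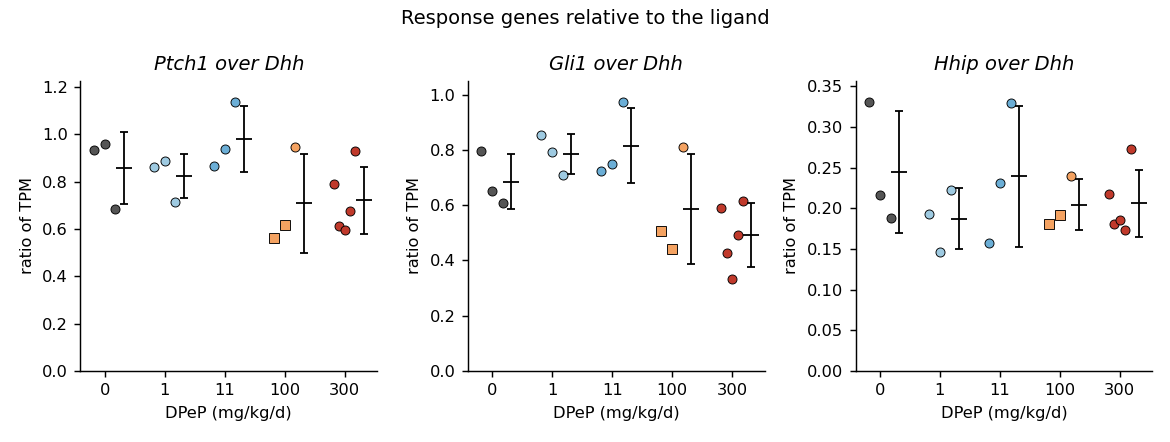
TPM of Ptch1, Gli1 and Hhip divided by the TPM of Dhh in the same library (y axes, from 0) against the dose in mg/kg/d (0 is vehicle), with mean and SD beside each group and squares for replicates 05 and 18 at 100 mg/kg/d. Gli1 over Dhh averages 0.492 at 300 mg/kg/d and 0.686 in vehicle libraries, and the groups overlap in 1 top-dose library.

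Few other genes of the pathway were called at 300 mg/kg/d. Gas1 and Ift172, listed with them, were not found under those names. Of 9 genes for other hedgehog ligands and for ligand acylation and release, 0 were called at any dose, with a median log2 fold change of 0.12 at 300 mg/kg/d against 0.01 for all tested genes. The most abundant were Scube1, a secreted helper of ligand release, and Disp1, a transporter that frees the ligand. Scube1 stood at 134 ± 20.6 CPM at 300 mg/kg/d and 123 ± 21.7 CPM in vehicle libraries. Disp1 stood at 28.7 ± 2.28 CPM and 25.2 ± 2.52 CPM in the same groups (SD, n = 5 and 3). The other hedgehog ligands were scarce beside Dhh, with mean levels of 1.34 TPM for Ihh and 0.599 TPM for Shh.

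Of 7 tested co-receptors and ligand-binding proteins, 0 were called at any dose against vehicle. Lrp2, an endocytic receptor that can bind hedgehog, was called as rising in the slope over dose (edgeR adjusted p 0.0424), as were 2.74% of tested genes. Its level was 30.6 ± 5.95 CPM at 300 mg/kg/d and 23.7 ± 2.80 CPM in vehicle libraries. Of the 7 co-receptors and ligand-binding proteins, 3 had a positive slope and 4 a negative one, with a median of -0.004. Of 21 regulators between Smo and the Gli proteins, 0 were called in any comparison with vehicle or in the slope. The most abundant were Prkar1a, a regulatory subunit of protein kinase A, at 433 ± 15.7 CPM at 300 mg/kg/d and 476 ± 10.2 CPM in vehicle libraries, and Csnk1a1, a casein kinase, at 374 ± 19.2 CPM and 395 ± 20.5 CPM. Of 17 genes of the primary cilium and its transport, 0 were called at any dose. Dync2h1, the motor of retrograde ciliary transport, was called as rising in the slope (edgeR adjusted p 0.0237), as were 2.74% of tested genes. Its level was 156 ± 9.59 CPM at 300 mg/kg/d and 126 ± 16.6 CPM in vehicle libraries. Of the 17 cilium genes, 9 had a positive slope and 8 a negative one. The slope calls of Lrp2 and Dync2h1 held in 9 and 21 of 25 alternatives.

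Of 16 further genes described elsewhere as Gli responses, 1 was called lower and 0 higher at 300 mg/kg/d, with a median log2 fold change of 0.07. Cdon and Boc are among the genes that stand both in this list and among the co-receptors. The called gene was Ccnd2, a G1 cyclin with many other inputs, at 397 ± 62.0 CPM at 300 mg/kg/d and 608 ± 75.0 CPM in vehicle libraries (log2 fold change -0.61, edgeR adjusted p 0.041), where 1.41% of all tested genes were called lower. That call held in 7 of 16 alternatives, with the log2 fold change between -0.71 and -0.53 and the adjusted p between 0.00395 and 0.189. It was lost without vehicle replicate 01 (adjusted p 0.137), 08 (0.189) or 15 (0.0586), and without replicate 07 (0.068), 13 (0.0894), 14 (0.1) or 20 (0.0677) at 300 mg/kg/d. It was also lost with unscaled totals (0.0564) and with the sample code block (0.158). In the slope over dose Ccnd2 (edgeR adjusted p 0.011) and Igfbp6, a binding protein of insulin-like growth factors (0.0287), fell with dose, as did 2.98% of tested genes. Foxf1, a forkhead factor of mesenchyme, was called as rising with dose (edgeR adjusted p 0.036), as were 2.74% of tested genes. Its level was 9.95 ± 2.41 CPM at 300 mg/kg/d and 6.85 ± 1.48 CPM in vehicle libraries. At 300 mg/kg/d against vehicle alone, Foxf1 and Igfbp6 had edgeR adjusted p of 0.18 and 0.297. The slope call held in 25 of 25 alternatives for Ccnd2, in 18 for Igfbp6 and in 16 for Foxf1.

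Leydig markers were lower at 300 mg/kg/d, while no interstitial progenitor marker was called. Of 14 Leydig cell markers, 11 were called lower and 0 higher at 300 mg/kg/d, with a summed level of 2004 to 2952 CPM at 300 mg/kg/d and 6587 to 8325 CPM in vehicle libraries. Star, which brings cholesterol into mitochondria, differed by -2.09 log2 units, Cyp11a1, the side-chain cleavage enzyme, by -1.71 and Cyp17a1, an enzyme of androgen synthesis, by -2.12. Of 16 interstitial progenitor markers, 0 were called, with a summed level of 3047 to 3470 CPM at 300 mg/kg/d and 3166 to 3494 CPM in vehicle libraries. None of the Leydig or progenitor markers was at 0 in any library. Inha and Nr5a1 stand in both the Leydig and the Sertoli list.

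Fewer markers of the remaining cell types were called. Of 12 germ cell markers 1 was called higher, of 11 macrophage markers 1 was called lower, and of 11 endothelial, 10 mesonephric duct and 8 red blood cell markers none was called at 300 mg/kg/d. All 11 endothelial markers had a lower value, summing to 396 to 453 CPM against 511 to 532 CPM in vehicle libraries. Mesonephric duct markers were higher in 10 of 10, at 353 to 424 CPM against 282 to 324 CPM. Macrophage markers were lower in 9 of 11 and higher in 2, at 103 to 120 CPM against 125 to 142 CPM. The germ cell and red blood cell sums overlapped those of vehicle libraries. Leydig markers were lower while the pathway readouts Ptch1, Gli1 and Hhip were not called. Whether the members' differences differ from those of any marker list was not tested.

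**Figure D5:**
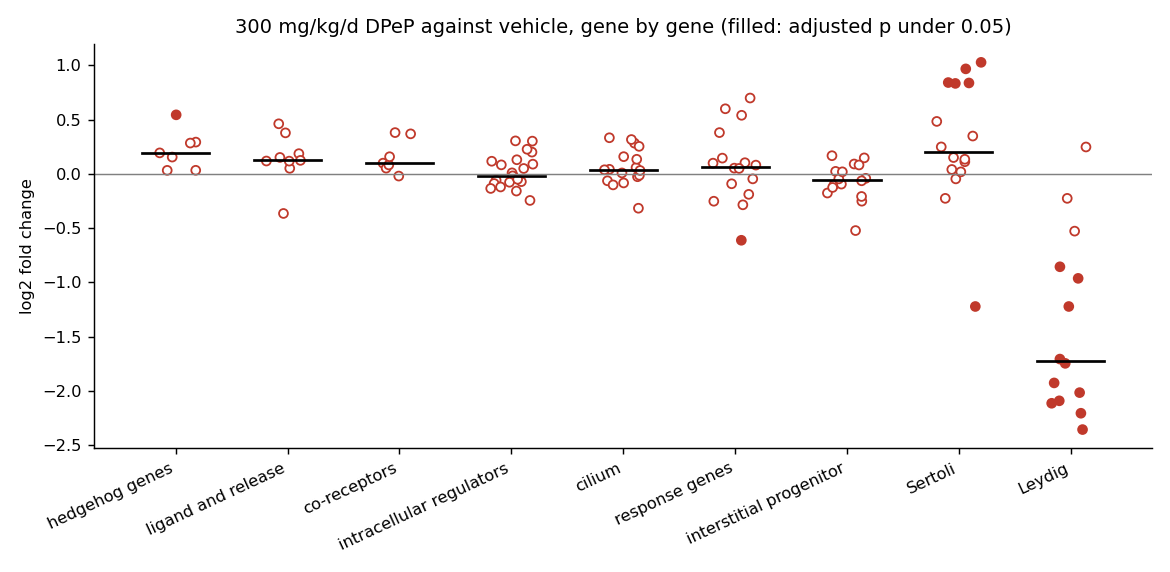
Log2 fold change at 300 mg/kg/d against vehicle (y axis) of each tested gene in the hedgehog lists and in interstitial progenitor, Sertoli and Leydig marker lists, with a bar at each list's median and filled points for an adjusted p under 0.05; members are plotted in the first list alone. Dhh is the filled point among the hedgehog genes, Ccnd2 the filled point among the response genes, and the Leydig list lies at a median of -1.73.

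The tested genes whose levels followed each member most closely were ranked by Pearson correlation of log2 CPM over the 17 libraries, as a description with no test. Libraries share dose, depth and the split within the 100 mg/kg/d group, all of which enter these values. For Dhh the closest were Emid1 (0.92), Arhgap27 (0.91) and Ctnnbip1 (0.90), a binding protein of beta-catenin. For Ptch1 they were Adcy7 (0.94), Vav2 (0.94) and Abr (0.92), for Smo Sh3rf1 (0.93), Rfx1 (0.91) and Dpy19l3 (0.91), and for Gli1 Cacna1g (0.95), Safb2 (0.92) and Sfswap (0.90). For Gli2 they were Adcy5 (0.97), Arid1b (0.95) and Ahdc1 (0.95), for Gli3 Hectd4 (0.96), Tenm4 (0.96) and Dync1h1 (0.95), and for Hhip RGD1308601 (0.87), Magi3 (0.83) and Atp2b1 (0.81). No member was among the 3 closest genes of another. Between members the correlation still reached 0.90 for Ptch1 and Smo and 0.86 for Gli2 and Gli3, and was lowest for Dhh and Gli2 at -0.14. Without replicates 05 and 18 at 100 mg/kg/d these 3 values were 0.81, 0.74 and -0.34. Without replicates 05 and 18 at 100 mg/kg/d, the correlations were 0.92 to 0.94 for the 3 Dhh neighbours and 0.82 to 0.86 for those of Hhip. They were 0.84 to 0.92 for the neighbours of Ptch1 and Gli2, 0.83 to 0.88 for those of Smo, 0.85 to 0.93 for those of Gli1 and 0.93 to 0.96 for those of Gli3.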

How the data were processed

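Raw gene counts were deposited by the authors. The submitters' processing notes name Trimmomatic 0.36, STAR 2.5.2b, featureCounts of Subread 1.5.2 and the build mRatBN7.2. They give neither a gene model release nor a strand setting. The table of the series held 47125 rows for 30652 identifiers. Each identifier was kept 1 time, its counts matched the single-library files without exception, and 92 spike-in rows were left out.

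Counts were fitted with edgeR 4.0.16 in R 4.3.3 (TMM, filterByExpr by dose group, quasi-likelihood F test, tested on simulated data first), and 95% intervals come from that fit. DESeq2 1.42.0, limma-voom (limma 3.58.1), other scalings and filters, a block for the sample code and leaving out libraries were alternatives. TPM were computed here from counts and exon lengths. Log2 CPM used a prior count of 2. Deposited TPM and log2 tables were not used.

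The members and lists were chosen with earlier results of these data known. From each pathway list the text names members called against vehicle or in the slope, up to 4 by adjusted p, or the 2 most abundant, and for each member its 3 closest genes. Alternatives for called genes that are not members were added after the data were seen. Of cell type markers it names the first 3 of a list beside a result they move with.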

Additional observations from a re-analysis of the deposited data

Results flagged for a closer look

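Dixon's test for outlying values was applied to the 300 mg/kg/d group alone, and 1 value of the members stood apart there. The smaller groups were not screened. At 300 mg/kg/d the Gli3 level of replicate 20 was 29.0 CPM, against 23.2 to 24.4 CPM in the other 4 libraries, and its gap to the nearest library exceeded the 95% limit of Dixon's test for 5 samples. Such a test marks about 1 in 20 groups by chance. Gli3 was not called in any comparison with vehicle, and the cause was not tested.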

How the results depend on the processing

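Of 861 pairs of a member result and an alternative, over 49 results, 788 kept both direction and side of the threshold, 23 lost a call, 10 gained one and 40 changed sign, all 40 for members that were not called. Libraries could not be paired by replicate number, because the dose groups share none. The sample code, whose meaning is unknown, is shared between groups, and with it as a block Dhh at 300 mg/kg/d had an adjusted p of 0.0787.

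The count of genes called depended on the setting. The main fit tested 18005 genes, and settings that changed the filter or the libraries were filtered anew, so the number tested could differ. Called at 1 mg/kg/d were 0 genes, but 1 without the low-count filter and 3 with the compared groups alone. At 11 mg/kg/d the count of 0 became 2 with unscaled totals, 26 with DESeq2, 2 with limma-voom, 19 without the filter, 1 with the sample code as a block, 10 with the compared groups alone and 19 without replicates 05 and 18 at 100 mg/kg/d. From 274 at 100 mg/kg/d the count became 910 with DESeq2, 45 with the compared groups alone and 73 without replicates 05 and 18. With 432 at 300 mg/kg/d as the base, the count was 746 with DESeq2, 270 with the block, 835 with the compared groups alone and 869 without replicates 05 and 18. Between 300 and 100 mg/kg/d the count of 1 became 1145 with DESeq2, 225 without the filter, and 0 with the block, with the compared groups alone or without replicates 05 and 18. Among the 5 groups 1109 became 2843 with DESeq2 and 581 with the block, and for the slope 1030 became 586 with the block and 1711 without replicates 05 and 18.

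With the block, 0 members were called at 300 mg/kg/d, among the 5 groups and in the slope, against 1 each. Without replicates 05 and 18 the slope called 2 members, Dhh and Smo, among the 1711 genes called.

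Leaving out 1 library at a time, the genes called ran from 0 to 2 at 11 mg/kg/d (2 without vehicle replicate 08), from 93 to 4250 at 100 mg/kg/d, from 212 to 432 at 300 mg/kg/d, from 0 to 5872 between 300 and 100 mg/kg/d and from 517 to 5913 among the 5 groups. The highest counts at 100 mg/kg/d, between 300 and 100 mg/kg/d and among the 5 groups came without replicate 19 at 100 mg/kg/d, and the lowest at 300 mg/kg/d without vehicle replicate 15. Other counts that moved by over 1.5 times were 256 and 264 at 300 mg/kg/d without vehicle replicate 01 or 08, and at 100 mg/kg/d 94 and 99 without vehicle replicate 01 or 15 and 162 and 93 without replicate 05 or 18. Among the 5 groups they were 657 and 623 without replicate 09 or 10 at 1 mg/kg/d, 517 without replicate 18 at 100 mg/kg/d and 708, 706 and 700 without replicate 07, 14 or 20 at 300 mg/kg/d. The 1 gene between 300 and 100 mg/kg/d was lost without replicate 05 at 100 mg/kg/d or replicate 14 or 20 at 300 mg/kg/d. The members called ran from 0 to 1 at 100 mg/kg/d, from 0 to 1 at 300 mg/kg/d, from 0 to 4 between 300 and 100 mg/kg/d, from 0 to 5 among the 5 groups and from 0 to 1 in the slope.

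The signs that changed were of log2 fold changes with no call. With the block, Dhh at 11 mg/kg/d was -0.0127 and Gli1 at 300 mg/kg/d -0.0628. Hhip at 11 mg/kg/d was 0.0231 with unscaled totals, 0.0178 with limma-voom and 0.0126 with the block. Without replicates 05 and 18, Smo at 1 mg/kg/d was -0.0057, the members at 100 mg/kg/d were 0.23 (Ptch1), 0.082 (Smo), 0.31 (Gli1), 0.16 (Gli2), 0.19 (Gli3) and 0.0426 (Hhip), and between 300 and 100 mg/kg/d Gli1 was -0.29, Gli2 -0.14 and Gli3 -0.0423. Leaving out 1 library, Smo ran from -0.0506 to 0.0564 and Hhip from -0.37 to 0.11 at 1 mg/kg/d. At 11 mg/kg/d Dhh ran from -0.0675 to 0.16, Gli3 from -0.0483 to 0.46 and Hhip from -0.27 to 0.30. At 100 mg/kg/d Ptch1 ran from -0.25 to 0.0936, Smo from -0.13 to 0.0558, Gli1 from -0.28 to 0.0939, Gli3 from -0.46 to 0.086 and Hhip from -0.23 to 0.24. At 300 mg/kg/d Gli1 ran from -0.11 to 0.18, Gli2 from -0.0617 to 0.15 and Gli3 from -0.0585 to 0.45, and between 300 and 100 mg/kg/d Gli1 ran from -0.0416 to 0.32. The cause of these changes was not tested.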
